A study of Mus musculus with 2 samples.

Results

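Upper-layer Cux2 nuclei were taken from single-nucleus RNA sequencing (snRNA-seq) of whole mouse brain as excitatory neurons of the cortex that carried the upper-layer gene Cux2. A nucleus belonged to them when it held at least 1 UMI (a unique molecular identifier, which counts 1 captured RNA molecule) of Slc17a7, the vesicular glutamate transporter of cortical excitatory neurons, and at least 2 UMIs of Cux2, with at most 1 UMI of Rorb, none of Gad1 or Gad2, at most 1 of Prox1 and Trpc6 together and at most 2 of the 5 layer 6 genes Foxp2, Tle4, Hs3st4, Syt6 and Zfpm2 detected. The rule found 176 of 15668 kept nuclei in the WBRT-28d library and 103 of 11037 in the ShamRT-28d library, 279 of 26705 in all. A nucleus was kept with 500 or more genes detected and no more than 5% of its UMIs on the mitochondrial genome.

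The study asked how whole brain irradiation changes the cells of the normal brain. WBRT-28d came from C57BL/6 mice given whole brain radiotherapy as 5 fractions of 2 Gy and harvested at day 28. ShamRT-28d came from C57BL/6 mice harvested at the same time, which the labels call untreated and the study's methods call mock-irradiated, and the labels give no transgene for either group. Each library pooled the frozen brains of 2 mice and no label tied a nucleus to a mouse, so with 1 library per condition no test between conditions was possible, and the treatment, the mice, the dissection and the handling of the libraries cannot be told apart.

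Upper-layer excitatory neurons lie in the superficial cortex and send most of their axons to other cortical areas, on the same side or through the corpus callosum. Cux2 and its relative Cux1 are homeodomain transcription factors that keep upper-layer identity and shape dendrites and spines. The Cux2 gene lies on chromosome 5 of the mouse genome. Rorb marks chiefly the layer that receives thalamic input, and Foxp2 and Tle4 mark the layer 6 neurons that project to the thalamus. These neighbours served as comparisons.

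Over all barcodes, WBRT-28d held 68423922 UMIs and ShamRT-28d 45511469. Upper-layer Cux2 nuclei held 1178484 UMIs in WBRT-28d and 773766 in ShamRT-28d, with a median of 5703.5 per nucleus (1255 to 27182) and 5815 (934 to 32137). This was above the median of all kept nuclei, 2594 in WBRT-28d and 2378 in ShamRT-28d. Their median number of detected genes was 2318 in WBRT-28d and 2553 in ShamRT-28d. Of the barcodes, 43 occurred in both libraries, and 2 upper-layer Cux2 nuclei of WBRT-28d and 0 of ShamRT-28d had such a barcode. All intervals below are 95% intervals and cover counting error only, not differences between mice.

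The nuclei made up 1.12% of kept nuclei in WBRT-28d (0.964 to 1.30, Clopper-Pearson) and 0.933% in ShamRT-28d (0.762 to 1.13), 2 intervals that overlapped. Among nuclei with Slc17a7 and no Gad1 or Gad2, they made up 7.10% in WBRT-28d (6.12 to 8.18) and 4.73% in ShamRT-28d (3.88 to 5.71), where the intervals did not overlap. Rorb nuclei, chosen by the mirror rule (at least 2 UMIs of Rorb and at most 1 of Cux2), numbered 285 in WBRT-28d (1.82%) and 195 in ShamRT-28d (1.77%). The share that differed most was that of layer 6. Layer 6 corticothalamic nuclei, with at least 3 of the 5 layer 6 genes, numbered 217 in WBRT-28d (1.38%) and 424 in ShamRT-28d (3.84%). A larger share of the excitatory nuclei therefore met the upper-layer rule in WBRT-28d and a smaller one the layer 6 rule. Cux2 was also more frequent in WBRT-28d among nuclei outside the rule. At least 2 Cux2 UMIs but no Slc17a7 UMI were held by 1144 of 15668 kept nuclei in WBRT-28d and 506 of 11037 in ShamRT-28d. With every nucleus thinned to the same number of UMIs, the upper-layer share of kept nuclei was not higher in WBRT-28d. Whether the upper-layer difference lay in the layers or in the detection of Cux2 was not tested. Nor was it tested whether equal parts of the cortex entered each library.

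The threshold cut through a continuous range of Cux2 counts. Cux2 was used to choose the nuclei, so its level is given as a description: its UMIs per nucleus ran from 2 to 18 in WBRT-28d (median 3.5) and from 2 to 13 in ShamRT-28d (median 3). Just inside the limit, 54 nuclei of WBRT-28d and 29 of ShamRT-28d held exactly 2 Cux2 UMIs. Just outside it, 160 and 94 otherwise qualifying nuclei held exactly 1. At the Rorb limit, 29 members of WBRT-28d and 13 of ShamRT-28d held exactly 1 Rorb UMI, and 16 and 9 otherwise qualifying nuclei held exactly 2. Only 1 Slc17a7 UMI was present in 107 of the nuclei in WBRT-28d (60.8%) and 52 in ShamRT-28d (50.5%). Cux2 was not limited to these nuclei: 1984 kept nuclei of WBRT-28d and 908 of ShamRT-28d held at least 2 Cux2 UMIs, of which 1144 and 506 had no Slc17a7 UMI.

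Genes that the rule did not use went with the label for most of the nuclei. Cux1 was detected in 138 of 176 nuclei in WBRT-28d (78.4%) and 77 of 103 in ShamRT-28d (74.8%). Oligodendrocyte nuclei, defined by at least 4 of 6 myelin genes and used as the background that free RNA gives, held Cux1 in 46.2% in WBRT-28d and 35.3% in ShamRT-28d, at median depths of 3065 and 2654 UMIs. Rasgrf2, a guanine nucleotide exchange factor enriched in superficial layers, was detected in 52.3% in WBRT-28d and 50.5% in ShamRT-28d, against 17.9% and 6.89% of oligodendrocyte nuclei.

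Thinning every nucleus to 1000 UMIs, which left out 0 shallower nuclei of WBRT-28d and 2 of ShamRT-28d, gave shares of 36.0% in WBRT-28d and 30.8% in ShamRT-28d for Cux1 and 15.7% and 18.9% for Rasgrf2. The forebrain kinase Camk2a was detected in 153 nuclei of WBRT-28d (86.9%) and 84 of ShamRT-28d (81.6%). At least 2 of 15 upper-layer intratelencephalic genes were present in 93.8% of the nuclei in WBRT-28d and 88.3% in ShamRT-28d, more than in Rorb nuclei (76.5% and 74.9%), layer 6 nuclei (68.2% and 72.4%) or oligodendrocyte nuclei (49.6% and 25.1%). Fezf2, the factor that specifies subcerebral projection neurons of layer 5, had 0 UMIs in these nuclei of both libraries.

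**Figure D1:**
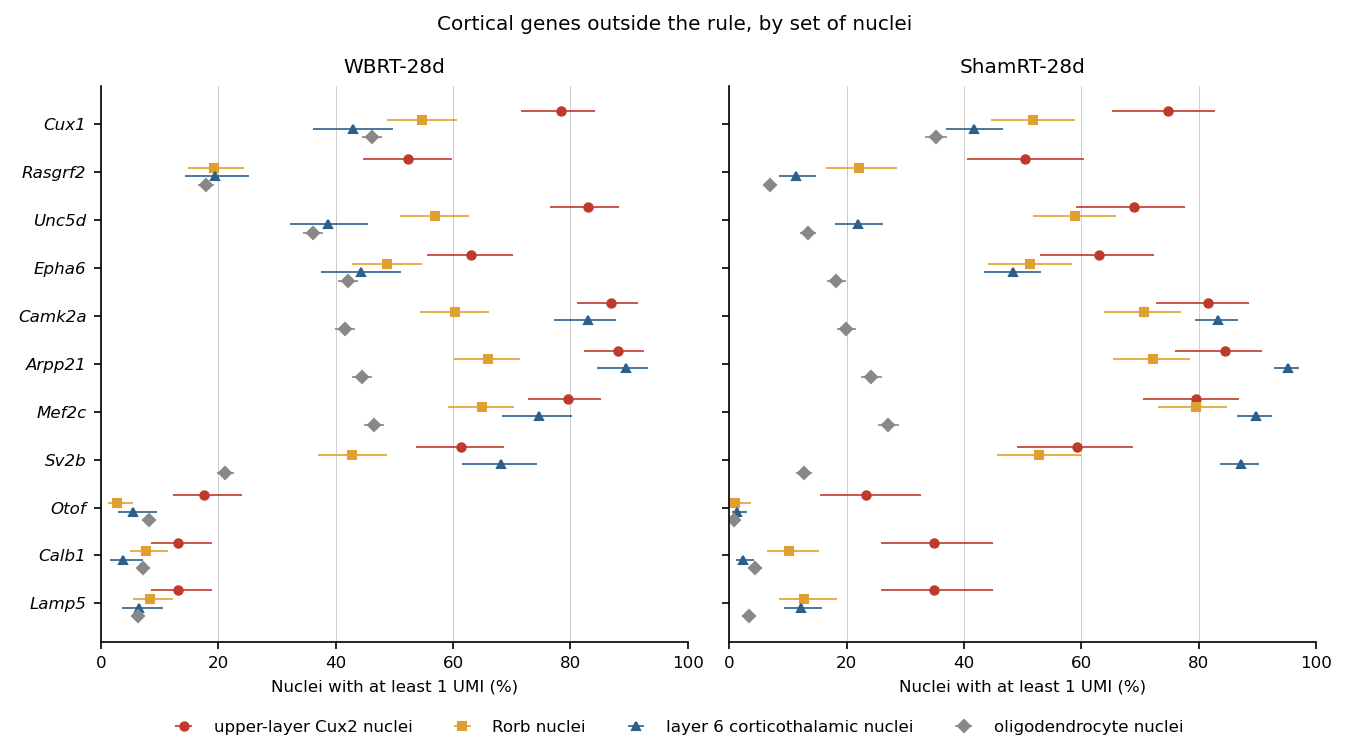
Share of nuclei with at least 1 UMI (x axis, %, with Clopper-Pearson 95% intervals) for cortical genes that the rule did not use (y axis), in upper-layer Cux2, Rorb, layer 6 corticothalamic and oligodendrocyte nuclei, with WBRT-28d left of ShamRT-28d. Cux1 stands at 78.4% in WBRT-28d and 74.8% in ShamRT-28d in upper-layer Cux2 nuclei, while Calb1 stands at 13.1% in WBRT-28d and 35.0% in ShamRT-28d.

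A minority of the nuclei fell in 4 groups with another set of genes, and these groups differed between the libraries. The 4 groups described here were delimited after the data were seen. Genes of other cells were spread more widely than these groups. At least 2 of 6 subcortical glutamatergic genes were present in 42.6% of the nuclei in WBRT-28d and 43.7% in ShamRT-28d. For 10 hippocampal CA1 and CA3 genes it was 43.2% and 41.7%, and for 8 oligodendrocyte genes 67.6% and 51.5%. In oligodendrocyte nuclei the first 2 lists stood at 36.5% and 17.6%, and at 44.7% and 32.6%. In all, 19 nuclei of WBRT-28d and 5 of ShamRT-28d also met the oligodendrocyte rule, with myelin genes such as Mbp and Mog. Tshz2, a zinc finger factor of deep-layer near-projecting neurons, reached 5 UMIs in 30 nuclei of WBRT-28d and 17 of ShamRT-28d. Ebf2, a helix-loop-helix factor not typical of cortical excitatory neurons, reached 2 UMIs in 0 nuclei of WBRT-28d, with a Clopper-Pearson upper limit of 2.07%, and in 8 of ShamRT-28d (7.77%). All 8 of these held Ebf3 and Nr2f2 and 0 held Rasgrf2, so they went against the label. The groups overlapped, and these 8 were among the 17 Tshz2 nuclei of ShamRT-28d. Sox6, a factor of interneurons and oligodendrocyte precursors, reached 3 UMIs in 9 nuclei of WBRT-28d and 3 of ShamRT-28d, with Nxph1 at 2039 CPM (UMIs of a gene per 1000000 UMIs of the set). At least 1 of the 4 applied to 53 nuclei of WBRT-28d (30.1%) and 22 of ShamRT-28d (21.4%), which left 123 and 81.

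Marker lists of other cells moved with the condition too, most of them higher in WBRT-28d. The summed level of 8 GABA neuron genes other than Gad1 and Gad2 was 617 CPM in WBRT-28d and 233 CPM in ShamRT-28d, with Dlx1 at 0 in WBRT-28d and Dlx6os1 at 0 in ShamRT-28d. Most of this sum was 2 genes: of 727 and 180 UMIs, Erbb4 gave 514 and 98 and Nxph1 178 and 66. Outside the 4 groups the ratio of Nxph1 was 0.708 (0.367 to 1.36). A list of 8 oligodendrocyte genes summed to 1106 CPM in WBRT-28d and 942 CPM in ShamRT-28d. The 8 astrocyte genes summed to 731 and 516 CPM, and no gene of either list was at 0. At least 2 of 6 near-projecting genes were present in 41 nuclei of WBRT-28d (23.3%) and 6 of ShamRT-28d (5.83%). The share was also higher in WBRT-28d in layer 6 nuclei (35.5% and 14.9%). It was so too in oligodendrocyte nuclei (14.7% and 3.69%), at lower levels than in upper-layer Cux2 nuclei. The 7 microglia genes went the other way, at 164 CPM in WBRT-28d and 216 CPM in ShamRT-28d. At least 2 of the layer 6b genes were present in 0 nuclei of both libraries. Because such genes moved with the condition, values for the nuclei outside the 4 groups (123 and 81) stand beside the differences that they change most.

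The main question was which genes differed between WBRT-28d and ShamRT-28d in these nuclei. Higher in WBRT-28d were genes known from GABA neurons and glia (Erbb4, Adarb2, Sox6), the secreted factor Vwc2l, the vesicle GTPase Rab3c and every measured gene of the mitochondrial genome. Lower in WBRT-28d was a set of genes: the calcium buffer Calb1, the cadherin Cdh7, the secreted synaptic protein C1ql3 and the membrane protein Lamp5. These genes partly shared nuclei in both libraries. A gene was measured when the 2 libraries together held 100 UMIs or more of it. Of 3342 such genes, 235 (7.03%) were at least 1.5-fold higher in WBRT-28d and 160 (4.79%) were lower by the same factor, at or under a ratio of 0.667. The median log2 ratio of all measured genes was 0.04, with quartiles of -0.19 and 0.28. The split between the directions rested on the scaling: with UMIs per nucleus in place of CPM, 125 were higher and 319 lower, the median log2 ratio was -0.13 and 28.2% of the genes past 1.5-fold were higher, against 59.5% in CPM.

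Vwc2l, a secreted protein with a von Willebrand factor type C domain, had the highest ratio. The gene lies on chromosome 1 from 70725715 to 70885397 on the plus strand (GRCm38, which is mm10, with GENCODE vM21 annotation). It held 242 UMIs (205 CPM) in WBRT-28d and 10 UMIs (12.9 CPM) in ShamRT-28d, a ratio of 15.9 (exact conditional binomial interval 8.49 to 33.6). The signal came from few nuclei: 37 of WBRT-28d and 5 of ShamRT-28d held a UMI, up to 27 in 1 nucleus of WBRT-28d and 4 in 1 of ShamRT-28d. Of those UMIs, 213 lay in the 30 nuclei of WBRT-28d with at least 5 Tshz2 UMIs, and 0 in the 17 such nuclei of ShamRT-28d. Outside the 4 groups 23 and 10 UMIs remained, a ratio of 1.79 (0.820 to 4.22), an interval that includes 1. Among the Tshz2 nuclei, 18 of 30 held Rasgrf2 in WBRT-28d and 5 of 17 in ShamRT-28d, and Ebf3 was in 0 and 8 of them. Those 8 were the Ebf2 nuclei, none of which held Rasgrf2. All 5 with Rasgrf2 therefore lay among the remaining Tshz2 nuclei, and these differences were not separate from the Ebf2 nuclei.

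Several genes that mark GABA neurons were higher. Erbb4, the neuregulin receptor of cortical interneurons, held 514 UMIs (436 CPM) in 94 nuclei of WBRT-28d and 98 UMIs (127 CPM) in 25 nuclei of ShamRT-28d, a ratio of 3.44 (2.77 to 4.32). Its ratio was 10.0 (6.13 to 17.5) outside the 4 groups. Adarb2, an adenosine deaminase relative found in interneurons of caudal origin, held 229 UMIs in 53 nuclei of WBRT-28d and 32 UMIs in 12 of ShamRT-28d, a ratio of 4.70 (3.24 to 7.03). Its ratio outside the 4 groups was 6.83 (3.84 to 13.2). Sox6 held 108 UMIs in WBRT-28d and 22 in ShamRT-28d, of which 11 and 2 lay outside the 4 groups.

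Several of the genes furthest higher were as frequent in other nuclei. For 5 of the 12, namely Adarb2, Erbb4, Npas3, Sox6 and Ptgds, the share of upper-layer Cux2 nuclei with a UMI was at or below that in oligodendrocyte nuclei in both libraries. That share is no measure of free RNA for a gene that oligodendrocytes express, as they do Ptgds, and upper-layer Cux2 nuclei of WBRT-28d that met the oligodendrocyte rule held Erbb4 at 1216 CPM, against 288 CPM outside the 4 groups. In addition, 7 of the 12 (among them Adarb2, Erbb4, Erdr1, Dner, Npas3 and Sox6) were also at least 1.5-fold higher in both Rorb and layer 6 nuclei. Ptgds, prostaglandin D synthase of oligodendrocytes and meninges, held 296 UMIs in WBRT-28d and 78 in ShamRT-28d, a ratio of 2.49, and 1.77 (1.29 to 2.43) outside the 4 groups. It was 1.34 as a mean over nuclei and turned to 0.648 without nuclei holding 2 genes of a glial or vascular panel, which left 18 and 27 nuclei.

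Erdr1 was higher throughout the libraries. This gene, named for erythroid differentiation, held 488 UMIs in 151 nuclei of WBRT-28d and 99 UMIs in 61 nuclei of ShamRT-28d, a ratio of 3.24, and no nucleus held more than 10. The ratio was 3.14 in Rorb nuclei, 3.98 in layer 6 nuclei and 3.18 in all other kept nuclei, so it was not particular to the upper layer.

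A further 3 genes were past 1.5-fold the same way in neither neighbouring set. Rab3c, a GTPase of synaptic vesicles, held 202 UMIs (171 CPM) in 76 nuclei of WBRT-28d and 43 UMIs (55.6 CPM) in 26 of ShamRT-28d, a ratio of 3.08, against 0.803 in Rorb nuclei and 1.22 in layer 6 nuclei. Mpp6, a membrane-associated guanylate kinase scaffold, held 184 UMIs (156 CPM) in WBRT-28d and 47 UMIs (60.7 CPM) in ShamRT-28d, a ratio of 2.57, against 1.11 and 0.940. Zfp804b, a zinc finger protein, held 355 UMIs (301 CPM) in 50 nuclei of WBRT-28d and 99 UMIs (128 CPM) in 19 of ShamRT-28d. Its ratio of 2.35 stood against 0.286 in Rorb nuclei and 0.852 in layer 6 nuclei. These 3 kept ratios of 3.21, 2.204 and 2.31 outside the 4 groups, in the order Rab3c, Mpp6 and Zfp804b. Differences between sets of nuclei were not tested. Also among the 12 were Dner, a transmembrane Notch ligand of neurons (ratio 3.11), and Npas3, a basic helix-loop-helix factor (ratio 2.69).

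Among the genes lower in WBRT-28d, Calb1, calbindin, which buffers calcium in superficial neurons, held 28 UMIs (23.8 CPM) in WBRT-28d and 72 UMIs (93.1 CPM) in ShamRT-28d. The gene lies on chromosome 4 from 15881264 to 15908064 on the plus strand. Its ratio was 0.255 (0.159 to 0.4001). It was detected in 23 nuclei of WBRT-28d (13.1%, 8.47 to 19.0) and 36 of ShamRT-28d (35.0%, 25.8 to 45.0), against 7.19% and 4.35% of oligodendrocyte nuclei, and thinning to 1000 UMIs gave 2.95% and 7.16%. No nucleus of WBRT-28d held more than 3 Calb1 UMIs, against up to 8 in ShamRT-28d. Outside the 4 groups the ratio was 0.267 (0.159 to 0.435). The ratio was 1.08 in Rorb nuclei, 2.07 in layer 6 nuclei and 0.795 in all other kept nuclei. The first 2 rest on few nuclei. Calb1 was in 22 Rorb nuclei of WBRT-28d and 20 of ShamRT-28d, and in 8 and 10 layer 6 nuclei. The difference between these sets was not tested. The nuclei of the 2 libraries overlapped, since most held no Calb1 UMI in either.

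Lamp5, a lysosome-associated membrane protein gene of superficial neurons, behaved alike. Its 27 UMIs in WBRT-28d and 66 in ShamRT-28d were under the 100 required over both libraries, so it does not count among the genes measured. It was detected in 23 nuclei of WBRT-28d and 36 of ShamRT-28d, a CPM ratio of 0.269 (0.165 to 0.426), and 0.317 (0.189 to 0.517) outside the 4 groups.

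Cdh7 and C1ql3 completed the set. Cdh7, a type II cadherin, held 54 UMIs (45.8 CPM) in 33 nuclei of WBRT-28d and 118 UMIs (153 CPM) in 37 of ShamRT-28d, a ratio of 0.3005 (0.214 to 0.418). C1ql3, a secreted C1q-like protein that organizes synapses, held 43 UMIs (36.5 CPM) in 30 nuclei of WBRT-28d and 93 UMIs (120 CPM) in 33 of ShamRT-28d, a ratio of 0.304 (0.206 to 0.440). Both were also lower in Rorb nuclei, at 0.263 for Cdh7 and 0.263 for C1ql3, whereas in layer 6 nuclei Cdh7 was at 0.470 and C1ql3 at 1.41. Of the 36 nuclei of ShamRT-28d with Calb1, 23 also held Cdh7, 21 Lamp5 and 19 C1ql3, against 37, 36 and 33 of all 103. In WBRT-28d, 9 of the 23 nuclei with Calb1 held Cdh7, 5 Lamp5 and 6 C1ql3, against 33, 23 and 30 of all 176. In both libraries the genes were thus more frequent among nuclei with Calb1 than among all the nuclei. The same held for superficial genes outside the set. Otof was in 15 of the 36 against 24 of 103 in ShamRT-28d, and in 9 of the 23 against 31 of 176 in WBRT-28d. Cux1 was in 33 of the 36 against 77 of 103, and in 19 of the 23 against 138 of 176. Tshz2 and Slc17a6 were not more frequent there. The depth of the nuclei with Calb1 was not compared. Whether this sharing differed between the libraries was not tested.

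Not all superficial genes were 1.5-fold lower. Otof, otoferlin, a calcium sensor for vesicle fusion expressed in superficial neurons, was detected in 31 nuclei of WBRT-28d (17.6%) and 24 of ShamRT-28d (23.3%), a CPM ratio of 0.916 (0.609 to 1.39). Its background was higher in WBRT-28d. Oligodendrocyte nuclei held Otof in 8.13% (27.5 CPM) in WBRT-28d and 0.820% (3.25 CPM) in ShamRT-28d. The ratio of Otof therefore does not show whether its level apart from this background was lower. Cux1 had 467 CPM in WBRT-28d and 407 CPM in ShamRT-28d, and Rasgrf2 191 and 253 CPM. Neither was past 1.5-fold, and the ratio of Rasgrf2 was 0.754 (0.620 to 0.918).

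**Figure D2:**
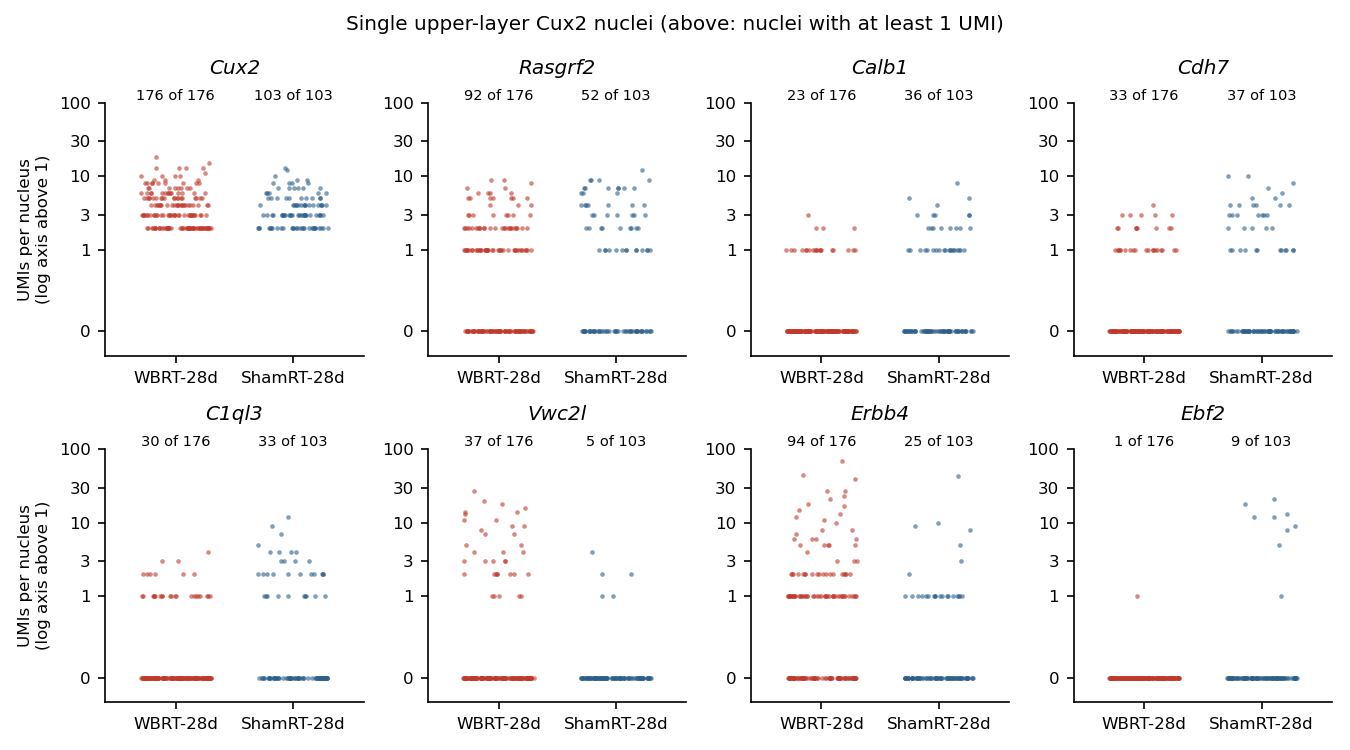
UMIs in each upper-layer Cux2 nucleus (y axis, logarithmic above 1), with WBRT-28d left of ShamRT-28d and 1 panel per gene, and the number of nuclei with at least 1 UMI written above each library. Vwc2l reaches 27 UMIs in WBRT-28d and 4 in ShamRT-28d, while Calb1 stays at or under 3 in WBRT-28d and reaches 8 in ShamRT-28d.

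Some of the lower genes rested on the nuclei of the 4 groups. Ebf2 held 1 UMI in WBRT-28d and 99 UMIs in 9 nuclei of ShamRT-28d. Outside the 4 groups Rbms3, an RNA-binding protein, turned from a ratio of 0.368 to 2.95 (1.61 to 5.76). Nrp2, a semaphorin receptor, moved from 0.331 to 0.974 and Heg1, a transmembrane protein best known from endothelium, from 0.348 to 0.741. The other 8 of the 12 genes furthest lower stayed past 1.5-fold outside the groups. They include Flrt2, a fibronectin leucine-rich adhesion protein, with 227 CPM in WBRT-28d and 530 CPM in ShamRT-28d (ratio 0.429), and Pvrl3, the adhesion protein nectin 3, with 76.4 CPM in WBRT-28d and 198 CPM in ShamRT-28d (ratio 0.386). Pvrl3 stood at 1.596 in Rorb nuclei. Cdh18, Cep112 and Sntg2, a cadherin, a centrosomal protein and a syntrophin, had ratios of 0.348, 0.326 and 0.313. Of the 12, 7 were past 1.5-fold the same way in neither Rorb nor layer 6 nuclei, and Cdh7 alone was so in both.

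**Figure D3:**
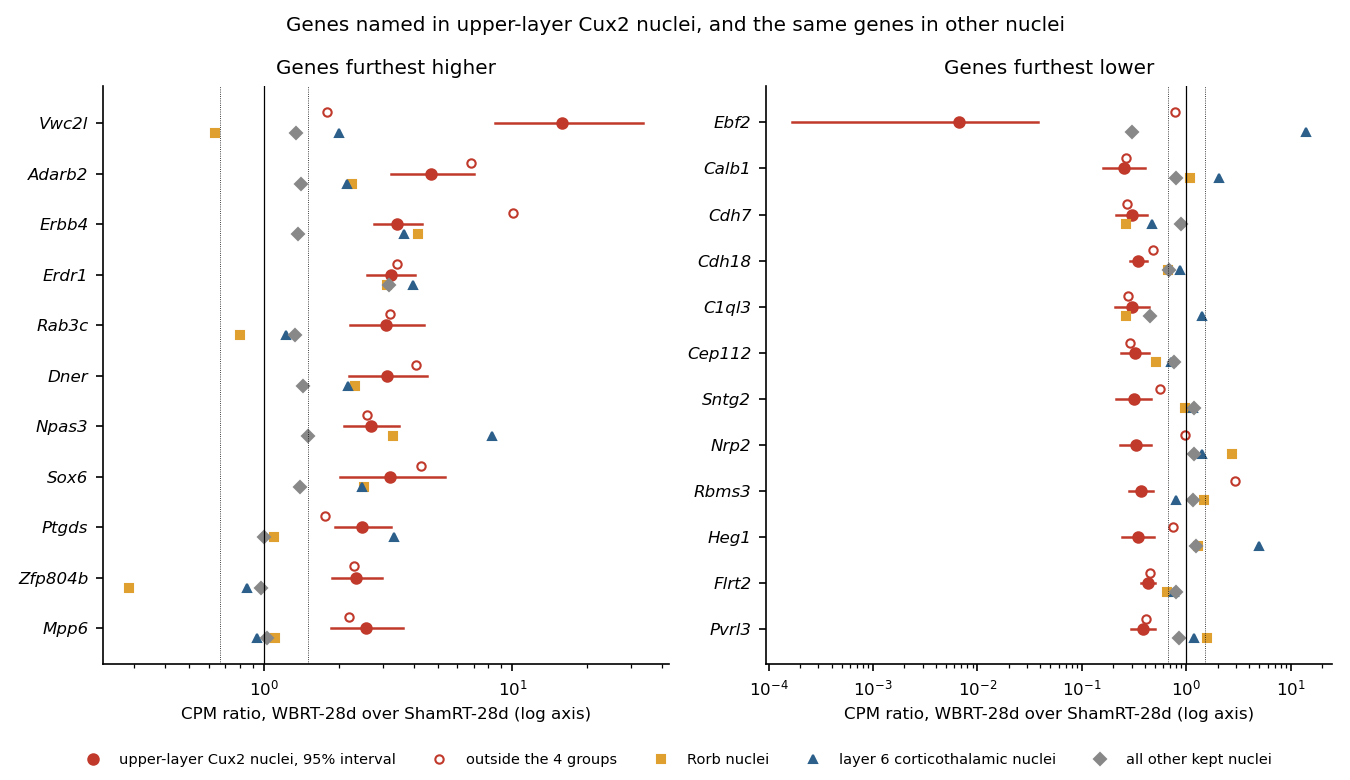
CPM ratio of WBRT-28d over ShamRT-28d (x axis, logarithmic) for named genes furthest higher and furthest lower in upper-layer Cux2 nuclei (filled points with exact 95% intervals), in those outside the 4 groups (open points), and in Rorb, layer 6 and all other kept nuclei. Erdr1 lies between 3.14 (Rorb nuclei) and 3.98 (layer 6 nuclei) in all 4 full sets, whereas Calb1 lies at 0.255 in upper-layer Cux2 nuclei and 1.08 in Rorb nuclei.

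Genes at the centre of the study's senescence question were scarce here. Cdkn1a, which encodes the cell cycle inhibitor p21, held 6 UMIs in WBRT-28d and 3 in ShamRT-28d. Cdkn2a, which encodes p16, held 0 UMIs in both libraries, where a count of 0 allows up to 3 UMIs, and a difference was not detectable at this depth. Trp53 held 18 UMIs in WBRT-28d and 7 in ShamRT-28d, a ratio of 1.69 (0.673 to 4.78), and outside the 4 groups 13 and 1, a ratio of 10.1 (1.52 to 430.5) that rests on the single ShamRT-28d UMI. Nrg1, a growth factor that neurons themselves make, was abundant, with 3740 CPM in WBRT-28d and 3283 CPM in ShamRT-28d, a ratio of 1.14 (1.08 to 1.1969). Bdnf, the activity-dependent neurotrophin, held 73 UMIs in WBRT-28d and 45 in ShamRT-28d, a ratio of 1.07 (0.725 to 1.58). Of 30 p53 targets 3 were measured and 0 were past 1.5-fold, with Sesn1 at 0.985, Mdm4 at 0.926 and Plk2 at 1.17. Of 35 genes of DNA damage response and repair 6 were measured, 0 past 1.5-fold, with a median log2 ratio of -0.13.

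Transmitter receptors and the synapse showed few genes past 1.5-fold. Of 14 measured ionotropic glutamate receptor genes, 3 were higher and 0 lower, against 7.03% and 4.79% of all measured genes, with a median log2 ratio of 0.16 against 0.04. The NMDA subunit Grin3a held 87 UMIs in WBRT-28d and 21 in ShamRT-28d, a ratio of 2.72, and 1.95 outside the 4 groups, but in WBRT-28d it was detected in no larger share of nuclei than in oligodendrocyte nuclei. The kainate receptor subunits Grik4, with a ratio of 1.67, and Grik3 were within 1.5-fold outside the 4 groups, at 1.23 and 0.779. Gria2, the AMPA subunit that blocks calcium entry, stood at 0.740 with 1342 CPM in WBRT-28d and 1813 CPM in ShamRT-28d. All 5 measured metabotropic receptors were within 1.5-fold. Of 12 GABA receptor genes 1 was lower, Gabrd, the delta subunit of extrasynaptic receptors, with 43.3 CPM in WBRT-28d and 80.1 CPM in ShamRT-28d (ratio 0.540). The 21 genes of transmitter release were all within 1.5-fold, with Syt1, the calcium sensor of release, at 1.02 and Snap25 at 0.930. Of 23 postsynaptic density genes only the scaffold gene Dlg4 was past it, at 1.63.

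Ion channels were likewise close. Of 26 potassium and related channel genes 1 was higher and 0 lower, with a median log2 ratio of -0.09, and the channel-interacting protein gene Kcnip4 stood at 0.886. Cacna2d3, an auxiliary calcium channel subunit, was the 1 of 16 sodium and calcium channel genes, at 1.54, and stood at 1.32 outside the 4 groups. Synaptic adhesion genes had 2 higher and 1 lower of 26. Tenm3, a teneurin, had a ratio of 0.480 in all the nuclei, but 1.31 outside the 4 groups. It stood at 7266 CPM in the 8 Ebf2 nuclei and 499.6 CPM in the other upper-layer Cux2 nuclei.

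Axon guidance genes went both ways, 4 higher and 5 lower of 28, against 7.03% and 4.79% of all measured genes. Dcc, the netrin receptor, held 879 UMIs (746 CPM) in WBRT-28d and 299 UMIs (386 CPM) in ShamRT-28d, a ratio of 1.93 (1.69 to 2.21), and 2.33 outside the 4 groups, against 0.642 in Rorb nuclei and 0.867 in layer 6 nuclei. Sema6d, a transmembrane semaphorin, had a ratio of 1.81. Both are common in oligodendrocyte nuclei, which held Dcc in 71.6% and 62.0% and Sema6d in 65.4% and 58.1%. Robo2, a Slit receptor, had 744 CPM in WBRT-28d and 454 CPM in ShamRT-28d, a ratio of 1.64. The lower ones included Sema3a at 0.407, which was 1.13 outside the 4 groups, and Ntng1, netrin G1, at 0.513, which was 0.772 (0.584 to 1.02) outside them. Of 17 cortical transcription factors 3 were higher (Tshz2 at 2.01, Zbtb20 at 1.77, Tcf4 at 1.72). Tshz2 helped to delimit the 4 groups, and outside them 22 of its 788 UMIs in WBRT-28d and 11 of its 258 in ShamRT-28d were left, a ratio of 1.56 (0.724 to 3.56), while Tcf4 stood at 1.43 and Zbtb20 at 2.66 there. Mef2c, an activity-dependent factor, stood at 0.680.

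Among activity and peptide genes a few were lower. Of 29 immediate early and activity genes 5 were measured, with 0 higher, 2 lower (Nrn1 and Rheb) and a median log2 ratio of -0.43. All 29 genes summed to 1045 CPM in WBRT-28d and 1418 CPM in ShamRT-28d, a ratio of 0.737 (0.679 to 0.801). Nrn1, the activity-induced protein neuritin, held 72 UMIs in 51 nuclei of WBRT-28d and 106 UMIs in 45 nuclei of ShamRT-28d, a ratio of 0.446 (0.326 to 0.607), and 0.516 outside the 4 groups. The peptide gene Cck held 89 UMIs in WBRT-28d and 90 in ShamRT-28d, a ratio of 0.649, close to the 0.627 of all other kept nuclei. Of 11 measured neuropeptide and growth factor genes 3 were lower, namely C1ql3, Nrn1 and Cck, and the summed ratio of the list was 0.960. In cyclic nucleotide signalling 2 were higher and 1 lower of 22, Adcy8, an adenylyl cyclase, at 2.101, Pde4b at 1.56 and the kinase gene Prkg2 at 0.414. Outside the 4 groups they stood at 1.29 (0.936 to 1.80), 1.32 (1.17 to 1.49) and 0.653 (0.392 to 1.08), so that neither of the 2 higher ones stayed past 1.5-fold.

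The mitochondrial genome was the list furthest from 1. All 8 measured genes were at least 1.5-fold higher in WBRT-28d, with a median log2 ratio of 1.11, and the whole list of 13 genes summed to 1731 CPM in WBRT-28d and 784 CPM in ShamRT-28d, a ratio of 2.21 (2.01 to 2.42). The same sum gave 2.31 in Rorb nuclei, 2.08 in layer 6 nuclei, 1.43 in oligodendrocyte nuclei and 1.71 in all other kept nuclei. Mitochondrial RNA in a nuclear preparation lies outside the nucleus. The 8 measured respiratory chain genes of the nuclear genome were all within 1.5-fold, 3 above 1 and 5 below. Atp5a1 at 1.49 and Atp5c1 at 1.47 came close to the limit, and Atp5a1 was past it outside the 4 groups, at 1.83 (1.19 to 2.89). Clock, glucocorticoid, heat shock and apoptosis genes gave single calls (Per2 at 1.65, Hspa4 at 0.651, Bcl2 at 1.72) or none.

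**Figure D4:**
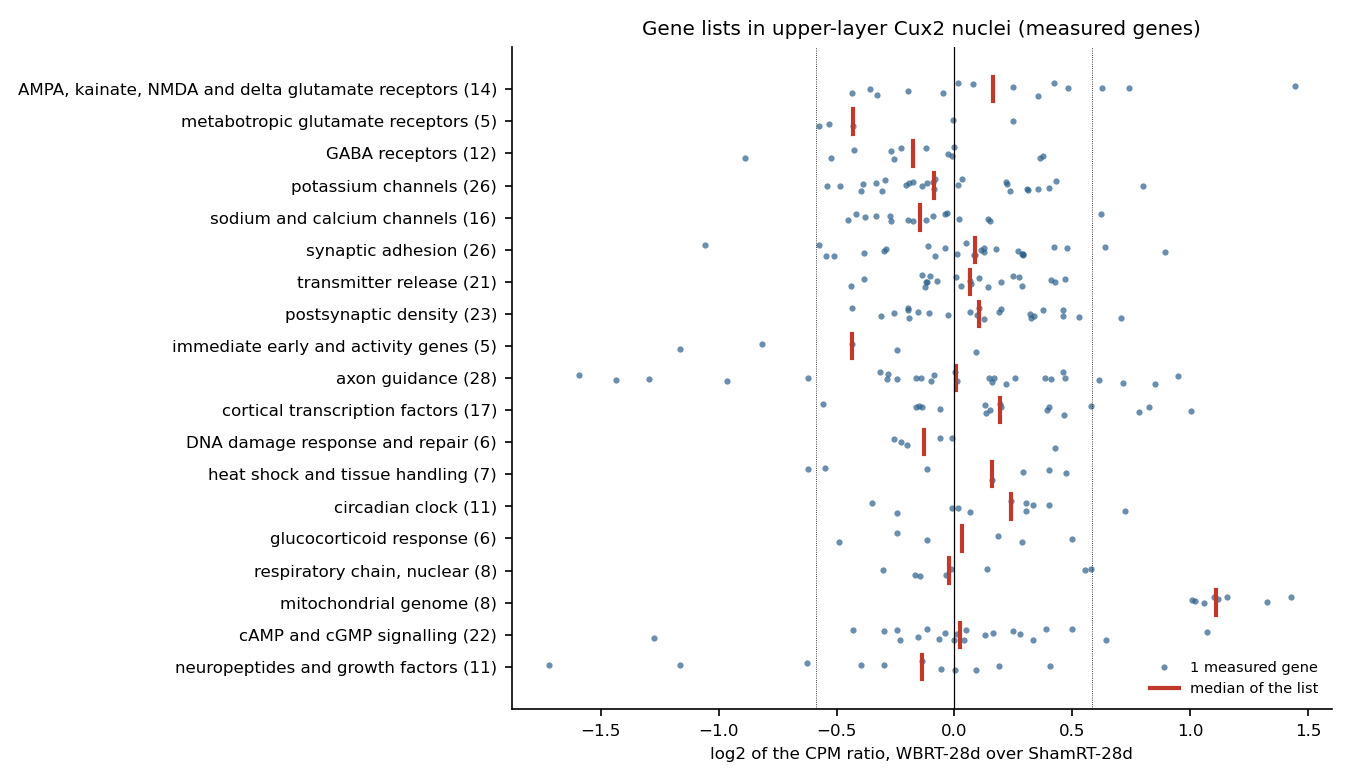
log2 of the CPM ratio of WBRT-28d over ShamRT-28d in upper-layer Cux2 nuclei (x axis) for each measured gene (points) of the gene lists (y axis), with the median of each list as a bar. The mitochondrial genome stands apart with a median of 1.11, while most lists lie near the median of all genes, 0.04.

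Set against Rorb nuclei of the same library, upper-layer Cux2 nuclei had more UMIs of several receptor genes. Of 3398 genes, 129 (3.8%) were at least 1.5-fold higher and 131 (3.86%) lower in both libraries. The 10 genes per direction were ranked in ShamRT-28d, so their WBRT-28d values are the repeat. In ShamRT-28d 7.47% of all genes were higher and 8.3% lower, in WBRT-28d 10.1% and 9.95%, and 7 of the 10 higher and 10 of the 10 lower genes were past 1.5-fold in WBRT-28d too. The serotonin receptor Htr2c had 183 CPM in upper-layer Cux2 nuclei and 65.4 CPM in Rorb nuclei of WBRT-28d (ratio 2.80), and 311 and 12.1 CPM in ShamRT-28d (ratio 25.7), but 1 nucleus held 66.2% of its UMIs in WBRT-28d and 1 held 69.3% in ShamRT-28d. Ccbe1, a secreted calcium-binding EGF-domain protein, had ratios of 5.35 in WBRT-28d and 22.9 in ShamRT-28d. The AMPA receptor partner Gsg1l had 4.34 and 7.41, the ephrin receptor Epha3 2.91 and 8.17, the calcium pump Atp2b4 2.89 and 5.13, and Rasgrf2 2.11 and 4.54. Sema5a and Rbms3, leading genes of the Ebf2 nuclei of ShamRT-28d, had 0.995 and 1.15 in WBRT-28d, and Nrp2 had 0.799.

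Several of the genes lower than in Rorb nuclei belong to astrocytes. Slc1a3, the astrocyte glutamate transporter, had 59.4 CPM in upper-layer Cux2 nuclei and 609 CPM in Rorb nuclei of WBRT-28d, and 16.8 and 250 CPM in ShamRT-28d. The summed astrocyte list was 4158 CPM in Rorb nuclei of WBRT-28d and 2026 CPM in those of ShamRT-28d. Rorb is itself expressed in astrocytes, so this comparison contrasts the upper layer with a set that held astrocyte RNA. Il1rapl2, a synaptic adhesion receptor that is not an astrocyte gene, had 139 CPM in upper-layer Cux2 nuclei and 763 CPM in Rorb nuclei of WBRT-28d (ratio 0.182), and 74.96 and 729 CPM in ShamRT-28d (ratio 0.103).

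Layer 6 corticothalamic nuclei were the other comparison. Their astrocyte list summed to 1131 CPM in WBRT-28d and 937 CPM in ShamRT-28d. This was below Rorb nuclei but above upper-layer Cux2 nuclei (731 and 516 CPM). At least 2 oligodendrocyte genes were present in 65.0% of them in WBRT-28d and 45.0% in ShamRT-28d. Their median depth was 6325 UMIs in WBRT-28d and 8752.5 in ShamRT-28d. Of 4405 genes, 207 (4.7%) were at least 1.5-fold higher and 189 (4.29%) lower in upper-layer Cux2 nuclei in both libraries. Taken singly, WBRT-28d had 7.01% higher and 7.15% lower and ShamRT-28d 10.9% and 10.4%. Of the 10 per direction ranked in ShamRT-28d, 9 higher and 9 lower were past 1.5-fold in WBRT-28d. Pparg, a nuclear receptor, held 202 UMIs (171 CPM) in upper-layer Cux2 nuclei and 21 UMIs (13.7 CPM) in layer 6 nuclei of WBRT-28d, a ratio of 12.5 (7.99 to 20.7). In ShamRT-28d it held 142 UMIs (184 CPM) and 21 UMIs (4.84 CPM), a ratio of 37.9 (23.9 to 63.1). Pdzrn3, a ubiquitin ligase with PDZ domains, had ratios of 6.87 in WBRT-28d and 16.6 in ShamRT-28d. Rasgrf2 followed with 3.58 and 13.7, Pvrl3 with 4.51 and 13.8, and the netrin receptor Unc5d with 3.78 and 8.45. Each of these ratios was smaller in WBRT-28d. Ranking the genes in ShamRT-28d favours large ratios there, so this says nothing about the condition.

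On the lower side stood genes of deep-layer identity. Bcl11b, a zinc finger factor of subcerebral projection neurons, had 33.9 CPM in upper-layer Cux2 nuclei and 237 CPM in layer 6 nuclei of WBRT-28d (ratio 0.143), and 11.6 and 193 CPM in ShamRT-28d (ratio 0.0602). The adhesion gene Cntnap4 had ratios of 0.173 in WBRT-28d and 0.0478 in ShamRT-28d, the kainate receptor Grik3 0.151 and 0.0960, and the serotonin receptor Htr1f 0.269 and 0.152. Cdh18 stood at 150 CPM in upper-layer Cux2 nuclei and 2402 CPM in layer 6 nuclei of WBRT-28d (ratio 0.0625), and at 432 and 2788 CPM in ShamRT-28d (ratio 0.155). The relaxin receptor Rxfp1 was past 1.5-fold only in ShamRT-28d, at 0.05002, against 0.679 in WBRT-28d.

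**Figure D5:**
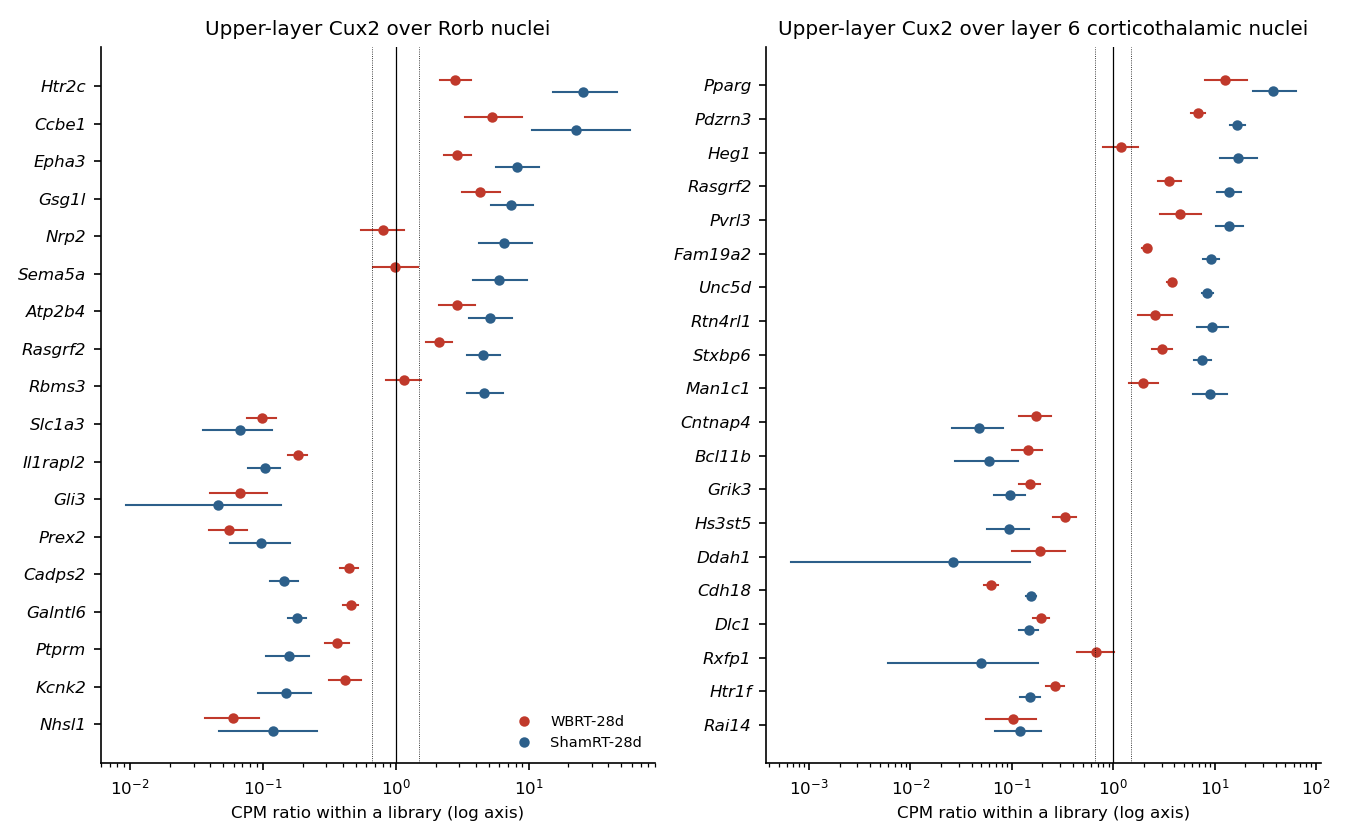
CPM ratio of upper-layer Cux2 nuclei over Rorb nuclei and over layer 6 corticothalamic nuclei within each library (x axis, logarithmic, exact 95% intervals) for the genes furthest apart in ShamRT-28d. Both libraries lie on the same side of 1 for most genes, as for Pparg over layer 6 nuclei, at 12.5 in WBRT-28d and 37.9 in ShamRT-28d.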

How the data were processed

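Single-nucleus RNA sequencing on the 10x Chromium system was analysed for 2 libraries of frozen whole brain, each of 2 pooled C57BL/6 mice. The deposited matrices hold whole-number UMI counts for every gene in every barcode that Cell Ranger 5.0.0 called, unnormalized, and the authors aligned the reads to a pre-mRNA reference of mm10. Seurat 3.0 and R 3.5.3 stand in the submitters' notes on processing. The files pair gene identifiers with symbols, and no cell annotation or map of nuclei to mice was used.

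UMIs of the chosen nuclei were summed per library and scaled to CPM, and the ratio of WBRT-28d over ShamRT-28d was given with an exact conditional binomial interval. A gene was called at 1.5-fold with 100 UMIs over both libraries. Named genes were the 12 per direction whose interval bound nearest to 1 lay furthest from it, without rule genes, numbered predicted genes and mitochondrial genes; then, per list, genes past 1.5-fold and those with most UMIs, 10 per direction against Rorb and layer 6 nuclei, and Cdkn1a, Cdkn2a, Trp53, Nrg1 and Bdnf. Lamp5, Otof and the other marker genes come from the marker lists. The nuclei, the 24 gene lists and the marker lists were chosen with earlier results of these data known. No doublet caller was run; nuclei with glial genes or with the most UMIs were left out as alternatives instead. Shares have Clopper-Pearson intervals. Some genes and the results that need them are not reported here. The scripts were tested on simulated data. Python 3.11.15 with numpy 2.4.6, scipy 1.17.1, pandas 2.3.3 and matplotlib 3.10.9 was used.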

Additional observations from a re-analysis of the deposited data

Results flagged for a closer look

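Among the named genes, 3 moved one way in upper-layer Cux2 nuclei and the opposite way in Rorb nuclei, each past 1.5-fold, and with 1 library per condition these differences between sets of nuclei were not tested. The CPM ratio of WBRT-28d over ShamRT-28d for Vwc2l was 15.9 in upper-layer Cux2 nuclei but 0.637 in Rorb nuclei, where 44 UMIs were counted in WBRT-28d and 69 in ShamRT-28d. For Zfp804b it was 2.35 in upper-layer Cux2 nuclei and 0.286 in Rorb nuclei, with 110 and 385 UMIs. For Pvrl3 it was 0.386 in upper-layer Cux2 nuclei and 1.596 in Rorb nuclei, with 99 and 62 UMIs. Rorb nuclei also held astrocyte genes, so these sets differ in more than cortical layer.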

How the results depend on the processing

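No paired analysis was possible because each condition had 1 library, and for the same reason no replicate could be left out. The share of kept nuclei, 1.12% in WBRT-28d and 0.933% in ShamRT-28d, became 2.14% and 1.78% with a minimum of 1 Cux2 UMI, 0.779% and 0.670% with 3, 1.35% and 1.26% among nuclei with 1000 detected genes, 7.10% and 4.73% of Slc17a7 nuclei without Gad1 or Gad2, and 0.154% and 0.157% after thinning to 1000 UMIs. WBRT-28d was higher in all of these except the thinned one. The counts of 235 higher and 160 lower genes became 125 and 319 with UMIs per nucleus, 837 and 814 with a minimum of 30 UMIs, 4182 and 4351 with no minimum, 65 and 34 past 2-fold, 51 and 42 without nuclei holding 2 genes of a glial or vascular panel (18 and 27 nuclei and 243 measured genes left), and 46 and 48 without nuclei holding 2 genes of another area (44 and 33 nuclei and 340 genes left). Fewer genes and nuclei enter the last 2 settings by construction. The counts stayed within 1.5 times under the other settings, among them median-ratio scaling, the mean over nuclei, leaving out nuclei above the 95th percentile of UMIs, and 3 settings chosen after seeing the data: without the 4 groups of nuclei with other genes, without the top nucleus per gene, and without barcodes found in both libraries. The ratio turned round for Ptgds without glial-panel nuclei (0.648). Without nuclei of the other-area panels it did so for Vwc2l (0.727), Cep112 (1.74), Rbms3 (3.49) and Heg1 (1.31). Rbms3 also turned  without the 4 groups (2.95). The cause of these turns was not tested.

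Low counts limit these values: 60.8% of the nuclei in WBRT-28d and 50.5% in ShamRT-28d rested on 1 Slc17a7 UMI, genes under 100 UMIs were not judged, and intervals cover counting error only.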

Other observations

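In WBRT-28d, 15 of the 23 nuclei with Calb1 and 21 of the 23 with Lamp5 also held Rasgrf2, against 28 of 36 and 27 of 36 in ShamRT-28d. Cdh7 was present in 10 of the 30 nuclei with C1ql3 in WBRT-28d and in 22 of the 33 in ShamRT-28d. Over all upper-layer Cux2 nuclei, Rasgrf2 was in 92 of 176 in WBRT-28d and 52 of 103 in ShamRT-28d. Cdh7 was in 33 of 176 and 37 of 103.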
